A study of Mus musculus with 12 samples.

Results

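The EGF family of ligands and receptors was followed through the back skin of mice treated with minoxidil or a cactus extract. The members were the 10 genes Areg, Ereg, Hbegf, Tgfa, Btc, Epgn, Egf, Egfr, Erbb2 and Erbb3, taken as every probe whose gene name on the array equals a member. They are 10 of the 27373 gene names on the array and were read by 23 probes. Male C57BL/6J mice, 8 weeks old, were shaved on the back and received 200 µL per day of 3% minoxidil (MXD, the positive control), 10% N-CE (a cell extract of the cactus Notocactus ottonis) or VC, the vehicle made of propylene glycol, ethanol and water. Shaving was common to all groups. RNA of whole back skin was pooled from 6 mice per group after 1, 2 and 3 weeks (1W, 2W, 3W), so each group and week is 1 pool. A treated pool and the VC pool of the same week were compared on 2 Agilent arrays, one for each orientation of Cy3 and Cy5, so 12 arrays hold the 6 comparisons.

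Ligands of the EGF family are made as membrane proteins and are released when proteases cut them from the cell surface. They bind Egfr or one of its relatives, the receptors pair and phosphorylate each other, and the signal passes through Ras and the MAP kinases to immediate early genes. In skin the family is known for its action on keratinocyte growth, on wound closure and on the hair cycle, and mice with a mutant Egfr or Tgfa have wavy hair.

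Values are log2 of the treated over the VC signal of the same array, given for the array with the treated pool in Cy5, then for the array with it in Cy3, and as their mean with the SD over both. A gene was called up- or down-regulated where each of the 2 arrays had an error-model P of the scanner software under 0.01, both pointed the same way, and the mean fold was above 1.5 or below 0.75. With 1 pool per group no test across mice is possible, and the SD and the P describe the measurement. In whole skin, fewer cells of a type and less RNA per cell cannot be told apart. Each member is represented by its brightest probe, and that probe was well above background in both channels of all 12 arrays for all 10 members.

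The promoters of the called ligands are shown because these genes moved in opposite directions, and the Areg probe because Areg was called under both treatments. The Areg probe lies at chr5:91570090-91570149 (mm9, plus strand) in the transcript NM_009704. All 4 called ligands have an entry in the promoter table, which is that of RefSeq on GRCm38.p6, each from 250 bases before to 50 bases after the gene start, read on the strand of the gene: Areg at chr5:91139349-91139648 (plus), Tgfa at chr6:86194972-86195271 (plus), Btc at chr5:91402945-91403244 (minus) and Egf at chr3:129755273-129755572 (minus). RefSeq gives Egf another start, with its window at chr3:129725037-129725336, which was searched too. Capitals mark the motifs TGACGTCA (the full cyclic AMP response element), TGACG (its core, also contained in the full element) and TATAAA, searched on both strands together with TGANTCA.
Areg probe: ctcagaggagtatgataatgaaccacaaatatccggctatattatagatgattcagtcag
Areg promoter: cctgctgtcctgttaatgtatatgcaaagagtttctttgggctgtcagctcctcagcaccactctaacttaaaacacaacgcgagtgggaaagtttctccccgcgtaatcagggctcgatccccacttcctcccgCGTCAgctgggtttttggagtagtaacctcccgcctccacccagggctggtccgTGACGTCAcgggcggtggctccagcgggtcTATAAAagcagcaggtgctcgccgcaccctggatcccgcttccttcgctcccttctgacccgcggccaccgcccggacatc
Tgfa promoter: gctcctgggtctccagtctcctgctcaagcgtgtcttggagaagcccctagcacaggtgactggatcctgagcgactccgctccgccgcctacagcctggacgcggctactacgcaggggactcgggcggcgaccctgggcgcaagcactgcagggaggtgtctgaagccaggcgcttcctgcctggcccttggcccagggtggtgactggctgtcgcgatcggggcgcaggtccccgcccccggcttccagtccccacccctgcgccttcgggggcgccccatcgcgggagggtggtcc
Btc promoter: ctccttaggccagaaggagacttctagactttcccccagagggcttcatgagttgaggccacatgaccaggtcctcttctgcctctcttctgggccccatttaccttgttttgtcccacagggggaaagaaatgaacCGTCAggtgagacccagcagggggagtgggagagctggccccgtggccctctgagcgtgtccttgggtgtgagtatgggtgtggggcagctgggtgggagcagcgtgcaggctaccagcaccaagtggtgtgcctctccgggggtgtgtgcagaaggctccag
Egf promoter: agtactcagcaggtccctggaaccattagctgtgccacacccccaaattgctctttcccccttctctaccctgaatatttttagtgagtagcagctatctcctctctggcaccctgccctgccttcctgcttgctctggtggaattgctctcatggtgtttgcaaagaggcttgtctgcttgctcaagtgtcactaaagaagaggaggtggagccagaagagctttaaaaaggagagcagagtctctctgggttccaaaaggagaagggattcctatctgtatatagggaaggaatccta
The Areg window holds TGACGTCA 61 bases and TATAAA 31 bases before the gene start, and a further TGACG core on the opposite strand 115 bases before it. The Btc window holds the TGACG core alone, and the Tgfa window and both Egf windows hold none of these letters. Of 32544 promoters of the same length, 1.80% hold TGACGTCA, 20.9% TGACG, 7.79% TGANTCA and 13.6% TATAAA. The matches describe these windows and say nothing of factor binding.

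Most calls among the members fell in MXD 2W. Areg and Tgfa were up-regulated and Btc and Egf were down-regulated, so 4 of the 7 ligands and none of the 3 receptors were called. Among the 17130 gene names measured in this comparison, 6.80% were called up and 11.0% down, against 2 up and 2 down of the 10 members. Of the 10 members, 9 had the same sign on both arrays, and their median log2 ratio was 0.22, beside 0.02 over all gene names. N-CE at 1W gave 1 call, Areg, which was down-regulated in a comparison where 2.98% of the gene names were called down and 0.582% up. No member was called in the other comparisons, in which calls in both directions together were rarer over all gene names too: 1.34% up and 1.36% down for MXD 1W, 0.311% and 0.305% for MXD 3W, 0.128% and 0.0814% for N-CE 2W, and 0.241% in each direction for N-CE 3W. The log2 ratios of the 2 arrays of a comparison correlated over the measured probes at 0.57, 0.71 and 0.26 for MXD 1W, 2W and 3W and at 0.60, -0.17 and 0.35 for N-CE 1W, 2W and 3W. The arrays of N-CE 2W thus did not repeat each other over these probes.

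**Figure D1:**
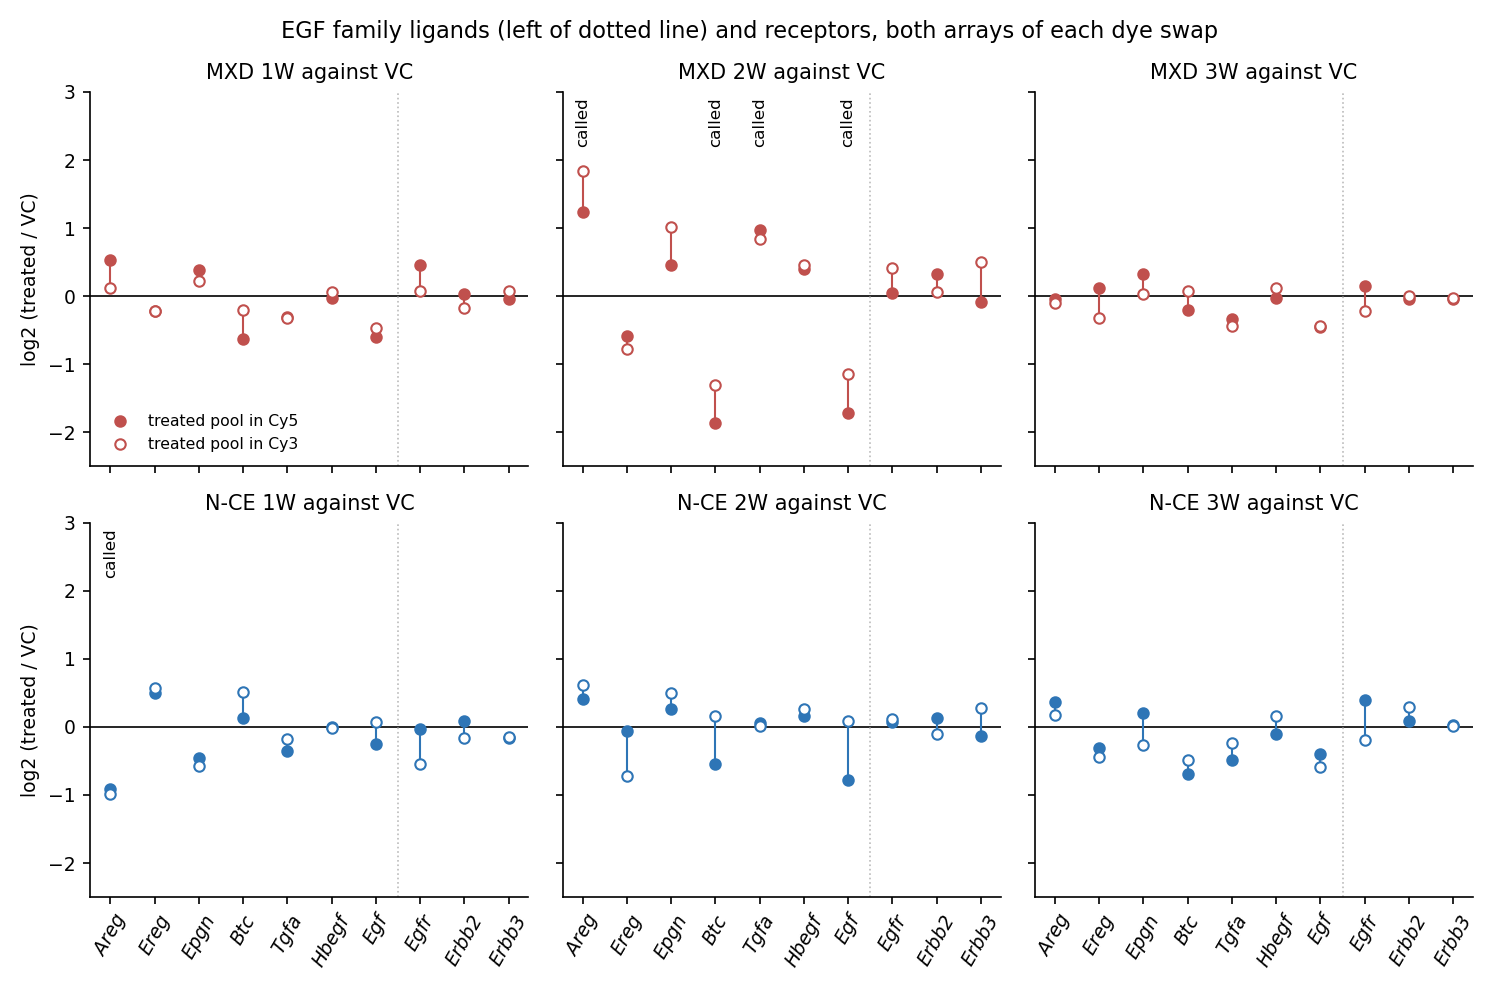
Log2 ratio of treated to VC signal (vertical axis) of the 10 members (horizontal axis) in the 6 comparisons, with filled points for the array with the treated pool in Cy5 and open points for the array with it in Cy3. The 4 calls of MXD 2W and the Areg call of N-CE 1W are marked, and the receptors, right of the dotted line, have means between -0.29 and 0.27 over all panels.

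Areg encodes amphiregulin, a ligand that binds Egfr. In MXD 2W its log2 ratio was 1.24 on one array and 1.84 on the other, with a mean of 1.54 ± 0.43 (SD), a 2.90-fold up-regulation with P of 1.31e-07 and 4.51e-12. In N-CE 1W the ratios were -0.92 and -0.99, with a mean of -0.96 ± 0.05 and a fold of 0.516, with P of 1.21e-04 and 3.35e-05. The arrays of each swap lay on one side of 0 in both calls, and the directions of the calls are opposite. In the other comparisons the mean log2 ratio of Areg was 0.32 ± 0.29 in MXD 1W, -0.08 ± 0.04 in MXD 3W, 0.51 ± 0.14 in N-CE 2W and 0.27 ± 0.13 in N-CE 3W. With normexp background correction and loess in place of the processing of the scanner software, the Areg ratio was 1.21 in MXD 2W and -0.48 in N-CE 1W, where the fold of 0.719 was still below 0.75.

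No array compared MXD with N-CE directly, so the treatments were compared by the difference of their ratios to VC. For Areg, MXD minus N-CE was 1.28 ± 0.24 on the log2 scale at 1W, 1.03 ± 0.29 at 2W and -0.35 ± 0.09 at 3W (SD over the 2 dye orientations). The Areg ratio was thus higher under MXD than under N-CE at 1W and 2W by more than the spread between arrays. At 3W the Areg levels of MXD, 8.07 and 8.09, lay between those of N-CE, 7.79 and 8.17, and the same VC pool was read 0.32 higher for Areg on the MXD arrays than on the N-CE arrays, beside -0.002 at 1W and 0.06 at 2W.

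The Areg levels were also compared between groups. They are normalized log2 signals of the probe, read on 4 arrays for each VC pool and on 2 arrays for each treated pool. At 1W the VC pool was read at 7.36 to 7.64, the MXD pool at 7.68 and 7.76 and the N-CE pool at 7.00 and 7.06, so the N-CE readings lay below every VC reading. At 2W the VC pool was read at 7.77 to 8.22, the MXD pool at 8.99 and 9.52 and the N-CE pool at 8.24 and 8.57. At 3W the 3 groups overlapped, with VC at 7.73 to 8.16, MXD at 8.07 and 8.09 and N-CE at 7.79 and 8.17. Over the 9 groups, Areg was highest in MXD 2W and lowest in N-CE 1W, 2.23 apart on the log2 scale, and in 4 of the 8 steps of that order the readings of the neighbours overlapped. The same VC pool read on the MXD arrays and on the N-CE arrays differed by -0.15 to 0.10 at 1W, by -0.28 to 0.29 at 2W and by -0.47 to 0.32 at 3W over the 10 members, which is the technical spread of such levels.

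Tgfa encodes transforming growth factor alpha, another ligand of Egfr. In MXD 2W its log2 ratio was 0.97 and 0.84, with a mean of 0.90 ± 0.09, a 1.87-fold up-regulation with P of 2.91e-05 and 1.83e-04. A second Tgfa probe gave 1.23 and 0.59 there and missed the P on one array. The mean ratio of Tgfa was -0.31 ± 0.02 in MXD 1W and -0.38 ± 0.07 in MXD 3W, and -0.27 ± 0.13, 0.03 ± 0.03 and -0.36 ± 0.18 in N-CE 1W, 2W and 3W. The Tgfa call was the one that the background correction decided: with normexp the ratio in MXD 2W was 0.58, a fold of 1.49 that lies just under 1.5.

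The Tgfa level also moved in the vehicle group. The VC readings lay between 6.99 and 7.09 at 1W, between 7.32 and 7.46 at 2W and between 7.93 and 8.11 at 3W, without overlap between weeks. The MXD 2W readings were both 7.95, above the VC pool of 2W and within the VC readings of 3W. VC 3W was the highest group and MXD 1W, at 6.80 and 6.88, the lowest, and 6 of the 8 steps in the order of Tgfa levels were free of overlap. Each week had its own pools and arrays, so week, pool, array and slide cannot be told apart in these levels. The log2 difference of VC 3W and VC 1W was 0.98 here and 1.59 with processed signals scaled to their 75th percentile.

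**Figure D2:**
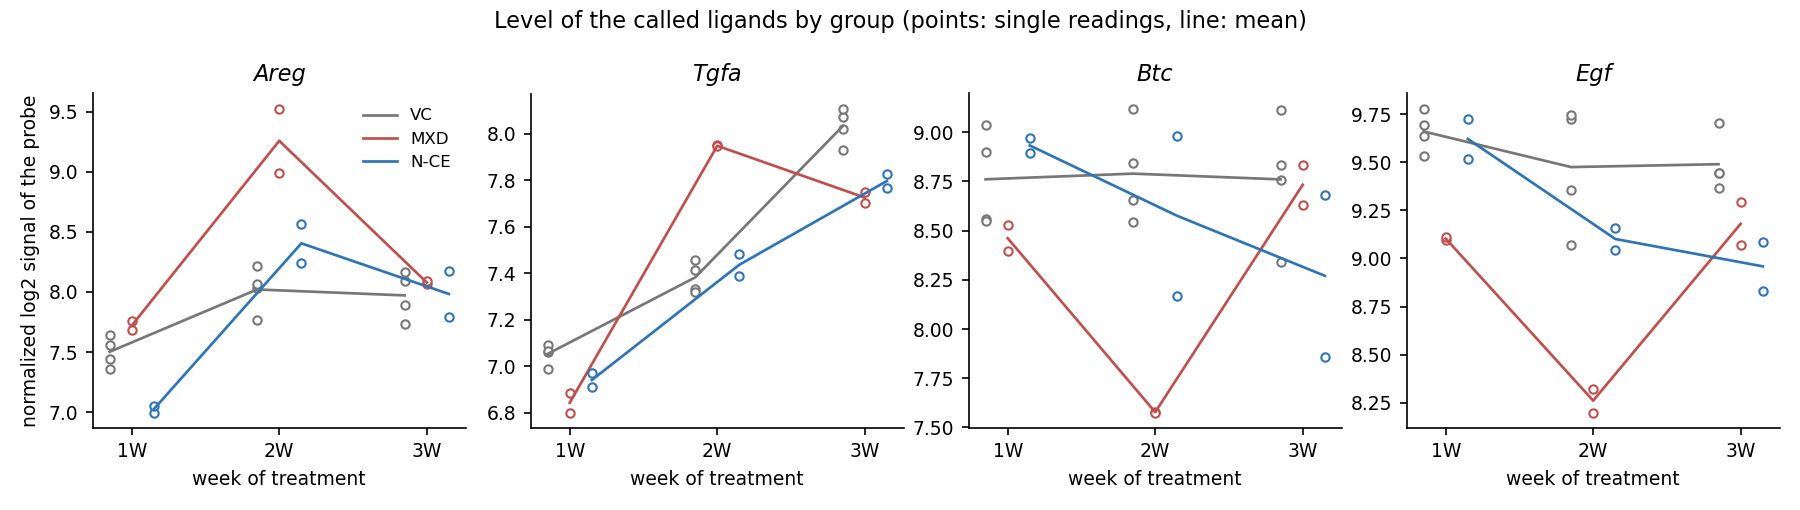
Normalized log2 signal of the Areg, Tgfa, Btc and Egf probes (vertical axes, each with its own range) by week, with 1 point per reading and lines through the group means, each week being a separate pool. MXD 2W stands at the top for Areg, with readings of 8.99 and 9.52, and at the bottom for Btc and Egf, while Tgfa climbs from 1W to 3W in the VC group.

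Btc encodes betacellulin, a ligand of Egfr and Erbb4. In MXD 2W its log2 ratio was -1.87 and -1.31, with a mean of -1.59 ± 0.39 and a fold of 0.333, the lowest of the 10 members, with P of 3.10e-12 and 4.73e-08. Both readings of the MXD 2W pool were 7.58, below the 8.54 to 9.12 of its VC pool and below every other group. In the other comparisons Btc gave -0.41 ± 0.31 in MXD 1W, -0.06 ± 0.19 in MXD 3W, 0.32 ± 0.27 in N-CE 1W, -0.19 ± 0.51 in N-CE 2W and -0.59 ± 0.15 in N-CE 3W. The N-CE 3W fold of 0.665 met the fold criterion but not the P criterion, with P of 0.00157 and 0.0206. A second Btc probe was not well above background in any channel and gives no value.

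Egf encodes epidermal growth factor itself, the ligand that named the family. In MXD 2W its log2 ratio was -1.72 and -1.15, with a mean of -1.44 ± 0.41 and a fold of 0.370, with P of 2.83e-11 and 7.31e-07. The MXD 2W pool was read at 8.20 and 8.32 and its VC pool at 9.07 to 9.75, so the groups were apart. Egf was below VC on the mean of every comparison, with -0.53 ± 0.10 in MXD 1W and -0.45 ± 0.003 in MXD 3W. The means were -0.09 ± 0.24, -0.34 ± 0.62 and -0.49 ± 0.13 in N-CE 1W, 2W and 3W. None of these was called. The arrays lay on opposite sides of 0 in N-CE 1W, at -0.26 and 0.08, and in N-CE 2W, at -0.78 and 0.09. MXD minus N-CE at 2W was -1.39 ± 0.11 for Btc, -1.09 ± 0.21 for Egf and 0.87 ± 0.06 for Tgfa, each larger than its spread over the dye orientations.

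Epgn encodes epigen and Ereg encodes epiregulin, and neither was called by its brightest probe. Epgn gave 0.46 and 1.01 in MXD 2W, a mean of 0.74 ± 0.39, and missed the call on the P of one array, 0.0267. In N-CE 1W Epgn gave -0.46 and -0.57, a mean of -0.51 ± 0.08. Ereg gave -0.59 and -0.78 in MXD 2W, a mean of -0.68 ± 0.14, and missed by a P of 0.0102 on one array. With normexp the MXD 2W folds were 1.48 for Epgn and 0.763 for Ereg, so both also fell short of the fold criterion. In N-CE 1W Ereg gave 0.49 and 0.57, a mean of 0.53 ± 0.05. Epgn thus stood on the same side of 0 as Areg in both comparisons in which Areg was called, and Ereg on the opposite side. Another probe that carries the name Ereg was called down in MXD 2W at -0.95, but it lies 40.7 kb away on the other strand, was well above background in the MXD pool on 1 of 2 arrays and cannot be assigned to epiregulin from its position. Hbegf, heparin-binding EGF-like growth factor, gave 0.43 ± 0.04 in MXD 2W and between -0.01 and 0.21 elsewhere.

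Epgn, Ereg, Areg and Btc are neighbours on chromosome 5, in this order on mm9. Their probes span 323 kb, with 57.5 kb between Epgn and Ereg, 48.4 kb between Ereg and Areg and 217 kb between Areg and Btc. In MXD 2W this neighbourhood held the highest and the lowest ratio of the 10 members, 1.54 for Areg and -1.59 for Btc.

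The receptors showed smaller ratios. Egfr binds Areg, Tgfa, Egf and the other ligands of its group, Erbb2 has no known ligand and serves as partner, and Erbb3 binds neuregulins and has little kinase activity. Over the 3 receptors and the 6 comparisons the 18 mean log2 ratios lay between -0.29 and 0.27, and none was called. In MXD 2W Egfr gave 0.05 and 0.42, Erbb2 0.32 and 0.06, and Erbb3 -0.09 and 0.50, so the spread between arrays was about as large as the ratios. Egfr has 6 probes, all well above background in every channel, and in MXD 2W their means ran from -0.06 to 0.73 without a call. The highest of them lies 127.8 kb upstream of the nearest other Egfr probe on the genome and carries the accession of a cDNA clone.

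**Figure D3:**
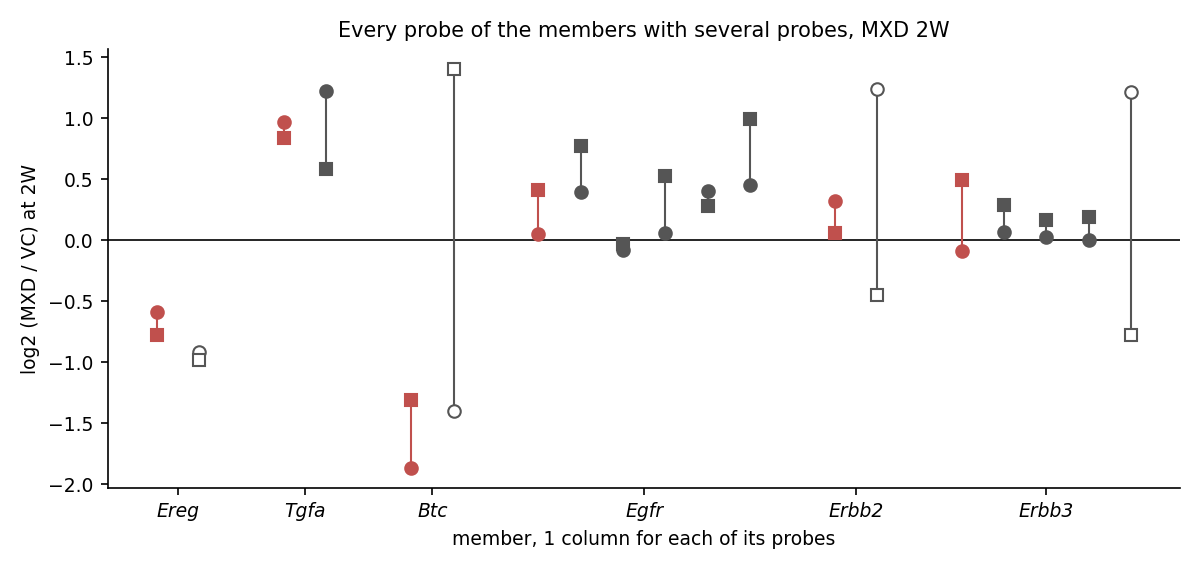
Log2 ratio of MXD to VC signal at 2W (vertical axis) for every probe of the 6 members with several probes, with circles for the MXD pool in Cy5, squares for it in Cy3 and the brightest probe of each member in red. Open symbols mark probes not well above background in both pools on both arrays, which hold the largest gaps between the arrays of Btc, Erbb2 and Erbb3, while the Egfr probes lie between -0.08 and 1.00.

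The other genes of the pathway were read from a list of 57 genes, of which 56 are on the array. In MXD 2W, 52 were measured, and 5 were called up and 1 down, with a median log2 ratio of 0.18, in a comparison where 6.80% of all gene names were called up and 11.0% down. In N-CE 1W, 1 of 51 was called up and 1 down, beside 0.582% and 2.98% of all gene names. In N-CE 2W 1 of 51 was called up, beside 0.128% of all gene names, and no gene of the list was called in MXD 1W, MXD 3W or N-CE 3W. Of the 10 immediate targets, most of them transcription factors that the pathway switches on, 3 were up in MXD 2W, with a median of 0.59 over the group. Etv4, an ETS factor, was up-regulated in MXD 2W at 0.99 ± 0.21 and down-regulated in N-CE 1W at -1.08 ± 0.21, which are the directions of Areg in these comparisons. Fos, part of the AP-1 factor, was up-regulated in N-CE 1W at 1.41 ± 0.06, opposite to Areg, and in N-CE 2W at 1.66 ± 0.04. Of the 3 measured genes among the neuregulins and Erbb4, Nrg4, a ligand of Erbb4, was down-regulated in MXD 2W at -1.03 ± 0.08. The remaining calls of MXD 2W, named after their values were seen, were Egr1 at 0.93 and Junb at 0.65, both immediate early factors, the kinase Braf at 0.81 and the phosphatase Dusp4, a feedback inhibitor, at 0.76. None of the genes for ligand shedding, which include the protease Adam17, was called in any comparison.

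All 6 basal keratinocyte markers, among them Krt5 and Krt14, were measured in MXD 2W, as the skin label requires. Of these, 1 was called down there, and their median log2 ratio was -0.33. Markers of other cell types were called in the same comparisons as Areg. In MXD 2W all 9 markers of hair matrix and shaft, such as Krt31, Shh and Lef1, were called up, with a median log2 ratio of 1.31. In N-CE 1W all 9 were called down, with a median of -2.37. Over all gene names, 6.80% were called up in MXD 2W and 2.98% down in N-CE 1W. The list was chosen with earlier results of these data known. The study names Lef1 and Dsg4 among its most raised genes of MXD 2W and Shh among its most lowered of N-CE 1W. These counts are thus a description and no independent support. In N-CE 1W, Hoxc13, Dsg4 and Shh were not well above background in both groups on all arrays, so their ratios there rest on signals near background. The summed signal of the 9 markers was 132118 to 140599 in MXD 2W against 50161 to 92717 in its VC pool, and 5030 to 6328 in N-CE 1W against 24661 to 30000 in its VC pool. In MXD 1W, where Areg was not called, 2 of the 9 were called up, with a median log2 ratio of 0.61. Melanocyte markers, such as Dct and Tyrp1, were called up in 4 of 5 in MXD 2W and down in 3 of 4 measured in N-CE 1W, with medians of 1.27 and -1.34. They were also called up where Areg was not, in 3 of 4 measured in MXD 1W and 3 of 5 in MXD 3W, with medians of 0.74 and 0.73. Over all gene names, 1.34% were called up in MXD 1W and 0.311% in MXD 3W. The part of these cell types in the Areg, Tgfa, Btc and Egf values was not tested.

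Most markers of several other cell types were lower in the MXD 2W pool in which Btc and Egf were down-regulated. All 5 skeletal muscle markers, 4 of 6 suprabasal keratinocyte markers, 3 of 6 fibroblast markers and 4 of 6 macrophage markers were called down, with medians of -1.46, -1.02, -0.84 and -0.77. So were 2 of 3 measured T cell markers, 3 of 5 adipocyte markers and 2 of 5 endothelial markers, with medians of -1.19, -0.57 and -0.46. Over all gene names, 11.0% were called down and 6.80% up in MXD 2W, and lists this short cannot be told from these shares by 1 or 2 calls. The summed signal of the suprabasal keratinocyte markers was 77167 to 110461 in MXD 2W and 119958 to 217683 in its VC pool. Of these 6 markers, 2 lay above 0 in MXD 2W, the highest at 0.43. Of the 5 markers of wound-activated keratinocytes, 4 were called up in MXD 2W, with a median of 0.94, and 3 in MXD 1W, with a median of 1.73, where Areg gave 0.32 and was not called. These lists were not tested as a part of the ligand values either.

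**Figure D4:**
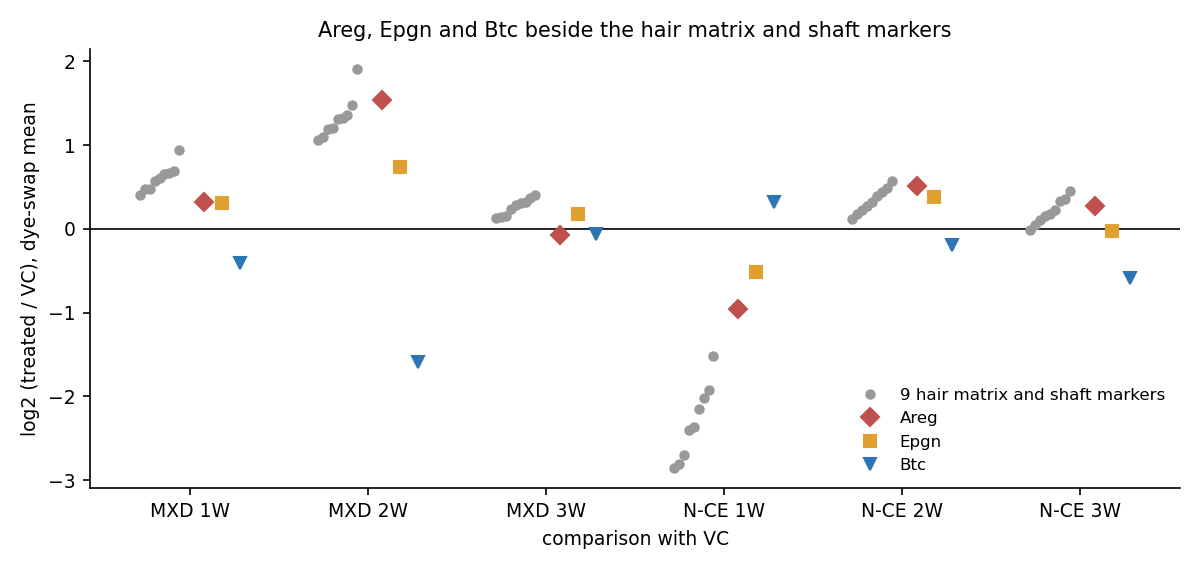
Mean log2 ratio of treated to VC signal (vertical axis) of the 9 hair matrix and shaft markers (grey), Areg, Epgn and Btc in the 6 comparisons (horizontal axis). The markers, Areg and Epgn are above 0 in MXD 2W and below 0 in N-CE 1W, Btc is at -1.59 and 0.32 there, and 3 of the N-CE 1W marker points rest on signals near background.

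The genes whose ratios ran most like those of the called ligands were sought among 14621 gene names over the 12 arrays. These arrays share VC pools and may share slides, so r is a description. For Areg they were Atp13a2, Ssx2ip and Fat1, with r of 0.987, 0.986 and 0.982. For Tgfa they were Atp2c2, Plb1 and Rab37, with r of 0.974, 0.963 and 0.959. For Btc they were Agmo, A630038E17Rik and Bbox1, with r of 0.993, 0.985 and 0.985. For Egf they were Ahr, Sdr16c5 and Unc50, with r of 0.982, 0.980 and 0.977. The sizes in MXD 2W differed, with Agmo at -1.28 beside -1.59 for Btc, but Ssx2ip at 0.29 beside 1.54 for Areg. Unc50 was at -0.25 there beside -1.44 for Egf, and above 0 in N-CE 1W, at 0.13, where Egf was at -0.09. Among the members, Btc and Egf ran together with r of 0.944, Areg and Epgn with 0.914, and Areg and Ereg ran opposite with -0.876.

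A change shared by all weeks was tested with limma, on the 3 weekly log2 ratios of each treatment and on their differences, over 40820 probes. No member passed a Benjamini-Hochberg adjusted p of 0.05, and neither did any other probe (0%). The lowest adjusted p among the members was 0.628 for MXD, 1 for N-CE and 0.75 for MXD minus N-CE. No member had an unadjusted limma p under 0.05, and 3067, 1486 and 2021 of all probes did. Without any change a share of 0.05 of the probes would. The MXD count was above that share, and the counts for N-CE and for MXD minus N-CE were not. Egf came lowest among the members for MXD, with a weekly mean of -0.80 ± 0.27 (SE) and a ratio below 0 in all 3 weeks.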

How the data were processed

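RNA of whole mouse back skin was measured on 12 two-colour Agilent arrays. The deposited files hold, for each spot, the log10 ratio of the Cy5 to the Cy3 channel, made by the authors with Agilent Feature Extraction (12.0.3.1 in the headers, 11.0.1.1 in the submitters' processing notes) after background subtraction and LOWESS dye normalization. They also hold an error-model p-value of the spot and the signal intensity of each channel, raw and processed, as deposited by the authors. At each of the 43379 transcript spots the deposited matrix is, within 1e-05, log10 of processed Cy5 intensity over processed Cy3 intensity. Probe positions are on mm9. Every array had 43379 transcript spots for 41174 probes, 57.0% to 69.6% of the spots were well above background in a channel, and the number of arrays limits the precision.

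Control spots and marked outlier spots were left out, every log2 ratio was given the direction of treated over VC, and replicate spots were averaged for each probe, with the median of their P. The probe with the highest mean processed signal stands for its gene, and gene names well above background on both arrays in neither group of a comparison were left out. Levels came from normexp with an offset of 50, loess and Aquantile normalization (limma 3.58.1, R 4.3.3). Weekly ratios were fitted with limma's lmFit and eBayes, with weeks standing in for replicates. The rest used numpy 2.4.6 and pandas 2.3.3 under Python 3.11.15. The call rule was also run on simulated shifts equal on both arrays, and the fit on simulated shifts equal in all weeks. These runs say nothing of the single calls made here.

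Named were all members with every probe, the 2 pathway genes with the largest absolute ratio among those called in each comparison, and the 3 gene names most correlated with each called member among those above background in all channels. The members and lists were chosen with earlier results of these data known. Alternatives covered the P and fold criteria, the background correction, dim probes, outlier spots, other probes, the matrix, each array alone, and in the fit each week left out and the week as a random block. No columns of other samples were present (0).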

Additional observations from a re-analysis of the deposited data

Results flagged for a closer look

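Each item here is a difference between comparisons in which both arrays of one comparison lay on one side of 0 and both arrays of the other on the opposite side. Only the larger of such differences are listed. Btc, Ereg and Epgn met the same rule between MXD 1W and N-CE 1W, with smaller differences of -0.74, -0.74 and 0.82. None of these differences was tested, since each group is 1 pool. The Areg log2 ratio of MXD 1W exceeded that of N-CE 1W by 1.28, and that of MXD 2W exceeded that of MXD 3W by 1.61. The Areg ratio of N-CE 1W minus that of N-CE 2W was -1.47, and minus that of N-CE 3W it was -1.23. The N-CE 2W arrays correlated at -0.17 over the measured probes, which touches the first of these. The Tgfa ratio of MXD 1W minus that of MXD 2W was -1.22, and that of MXD 2W exceeded that of MXD 3W by 1.29.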

How the results depend on the processing

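The 4 calls of MXD 2W became between 3 and 6 under the 9 alternatives. With fold alone, without P, the members called were 1 in MXD 1W, 1 in MXD 3W, 2 in N-CE 1W and 2 in N-CE 3W, where 0, 0, 1 and 0 were called. With normexp and loess on fold alone they were 1, 2 and 1 in MXD 1W, N-CE 1W and N-CE 3W. With the series matrix on fold alone they were 1 in MXD 1W, 1 in MXD 3W, 2 in N-CE 1W and 1 in N-CE 3W. On the array with the treated pool in Cy5 alone they were 2 in MXD 1W, 2 in N-CE 2W and 1 in N-CE 3W, and on the array with it in Cy3 alone 3 in N-CE 1W, 2 in N-CE 2W and 1 in N-CE 3W. With normexp, 11 of the 60 member ratios moved by more than the spread of the 2 arrays. The single arrays cannot move by more than that spread and the matrix holds nearly the same values, so they are no check of it. Of 80 differences of levels from VC 1W, 23 moved with processed signals. The limma counts were 0 under the 6 alternatives, from 0 to 0 with each week left out, which says nothing of stability, as no probe passed at all. No paired analysis was possible because 1 is the only replicate number, and the pairing by array and by week is already part of every ratio and of the fit over weeks. The causes of these shifts were not tested, and probes near background are limited by their signal.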
